A study of Homo sapiens with 8 samples.

Results

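DKS-5 and DKO-3 are 2 colon cancer cell lines, and the comparison described here asks by how much their response to hypoxia differed, and whether a difference lay at the normoxia start or at the hypoxia level. For each gene the measure was the interaction, the hypoxia minus normoxia difference in DKS-5 minus the same difference in DKO-3. A positive value means a larger rise, or a smaller fall, in DKS-5, or a rise there against a fall in DKO-3. A larger response or estimate in a line is meant below in this signed sense, and does not say which line changed more. The comparison used 8 of the 8 arrays of the study, 2 in each of 4 groups: DKS-5 after 12 h at 1% O2, DKS-5 at 21% O2, DKO-3 after 12 h at 1% O2 and DKO-3 at 21% O2. DKS-5 is labelled K-ras mutant, and DKO-3 is labelled K-ras knockout, with wild-type in brackets. Each genotype was represented by 1 line, so genotype and line cannot be told apart, and K-ras transcripts were not analysed here. RNA was amplified and labelled from cultures harvested below confluency and hybridised to expression arrays. In all, 12735 of 19775 genes were bright enough to be tested. The design text says that the cultures were repeated to give 2 samples per condition, without saying how far the repeats were independent, so a p-value here reflects spread between arrays that may be technical.

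Cells sense falling oxygen through prolyl hydroxylases, which need oxygen to mark the alpha subunits of hypoxia-inducible factor (HIF) for destruction. In low oxygen the alpha subunits persist, pair with a beta subunit and bind short response elements with the core ACGTG or GCGTG near genes of glucose uptake, glycolysis, vessel growth and mitochondrial turnover. K-ras is a small GTPase that passes growth factor signals to the RAF, MEK and ERK kinases, and activating mutations, common in colon cancer, keep it in its signalling state.

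The arrays were scaled to a common 2% trimmed mean of 172.1, before which the trimmed means lay between 133 and 201. The second array of DKS-5 hypoxia stood apart from the others on the second principal component, with a score of -33.0 against -15.4 to 24.5 on the other 7 arrays. The 3' to 5' signal ratio of the ACTB control probe sets, a measure of RNA integrity and of amplification, was lowest in DKO-3 hypoxia and varied within the other groups. It was 54.8 and 25.6 in DKS-5 hypoxia, 55.1 and 34.3 in DKS-5 normoxia, 11.5 and 11.0 in DKO-3 hypoxia, and 49.0 and 14.9 in DKO-3 normoxia. Of 10 colon epithelial markers, 9 had a probe set under their symbol alone and 7 were tested, and their summed signal lay between 15975 and 20165 on the 8 arrays. The adhesion genes EPCAM and CDH1 and the keratin gene KRT18 were bright in both lines. KRT20, a keratin of differentiated colon cells, averaged 8.26 in DKS-5 hypoxia and 11.3 in DKS-5 normoxia, against 354 in DKO-3 hypoxia and 445 in DKO-3 normoxia. VIL1, from the same list, lay the other way. It averaged 71.1 in DKS-5 hypoxia and 98.3 in DKS-5 normoxia, against 13.6 in DKO-3 hypoxia and 17.5 in DKO-3 normoxia. CDX1 and LGALS4 were dim in both lines. Markers of blood, vessel, stromal and other cells summed to between 97.7 and 177 over 15 genes, of which 3 (COL1A1, HBB and DES) were bright enough to be tested. As in any bulk sample, fewer cells of a type and less RNA per cell cannot be told apart.

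No gene passed the threshold for the interaction: 0 of 12735 genes (0%) reached an adjusted p under 0.05 with limma and Benjamini-Hochberg adjustment, and the smallest adjusted p was 0.738. At an unadjusted p under 0.05 there were 333 genes (2.61%), fewer than the 637 that uniform p-values would give. Of these, 139 (1.09%) had the larger response in DKS-5 and 194 (1.52%) in DKO-3, a split that was 13 to 1538 without array scaling and 151 to 139 with quantile normalization. Single arrays moved it too, to 415 and 503 without DKS-5 hypoxia replicate 1, 340 and 269 without the second array of that group, 98 and 95 without DKS-5 normoxia replicate 2, 169 and 393 without DKO-3 normoxia replicate 2, and 132 and 89 without DKO-3 hypoxia replicate 1. The median interaction was -0.02 on the log2 scale and the median standard error 0.36. The median 95% confidence interval, which is not adjusted, reached 0.76 to either side. With 2 arrays per group, smaller differences between the responses would thus not reach an unadjusted p under 0.05 in a typical gene. The adjusted threshold asks for more: estimates of 1.48 for NDRG1 and -1.89 for ALDH16A1 did not pass it. All values below on single genes are therefore estimates with wide intervals, ordered by p, and none of the differences between responses is called. Across genes the responses of the lines correlated with r = 0.49, a description over 12735 genes that are not independent and that share the arrays.

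**Figure D1:**
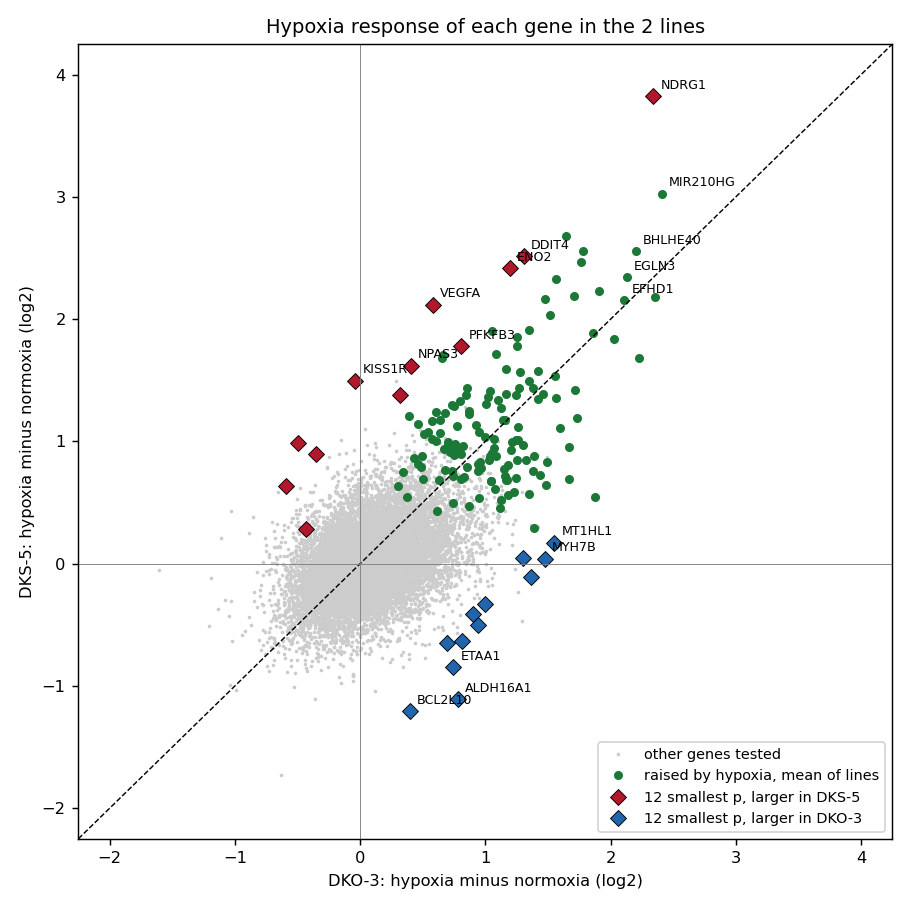
Hypoxia minus normoxia difference of each of the 12735 genes tested, in DKS-5 (vertical axis) and in DKO-3 (horizontal axis), both on the log2(signal + 16) scale. Red and blue diamonds are the 12 genes with the smallest interaction p in each direction, green points the 145 genes raised by hypoxia on average over the lines, and the dashed line marks equal responses. NDRG1 lies farthest up in DKS-5 at 3.82 against 2.34 in DKO-3, while the blue genes lie near or below 0 in DKS-5.

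The 12 genes with the smallest interaction p and the larger response in DKS-5 included the familiar hypoxia genes NDRG1, DDIT4, VEGFA, PFKFB3 and ENO2. The median interaction of the 12 was 1.22 on the log2 scale, and 7 of the 12 belonged to the 145 genes raised by hypoxia on average over the lines. The remaining 5, KISS1R, NPR1, THAP11, RBBP8NL and STARD7, had estimates of opposite sign in DKS-5 and DKO-3, of which only the rise of KISS1R in DKS-5 passed the threshold. In all 12 the 4 array-wise hypoxia minus normoxia differences of DKS-5 lay above the 4 of DKO-3, a pattern found in 6.01% of all genes tested. As the genes were picked by the smallest p, this separation is a description and supports nothing further.

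Because the interaction equals the line difference in hypoxia minus the line difference in normoxia, each value can be split into a start and a level. The share that the line difference in hypoxia makes up of the interaction sorts the genes: under 0.333 the difference lay mainly at the normoxia start, over 0.667 mainly at the hypoxia level, and between them at both. A share below 0 means that the lines differed the same way in both states and converged in hypoxia, and a share above 1 that they differed the same way and diverged. Among the 12 genes, 2 fell to the start, 1 converged, 6 fell to both, 1 fell to the level and 2 diverged. Taken alone, 90 genes (0.707%) were higher and 234 (1.84%) lower in DKS-5 than in DKO-3 in normoxia with limma at an adjusted p under 0.05, and 177 (1.39%) were higher and 380 (2.98%) lower in hypoxia. The normoxia total of 324 was 119 to 161 without any 1 of the 4 normoxia arrays, and the hypoxia total of 557 was 135 without the first DKO-3 hypoxia array and 258 without the second. The split is a description, since error in the normoxia arrays enters the start and the response with opposite signs.

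NDRG1, a stress-response gene strongly induced by low oxygen, differed at the start. Its signal was 1996 and 2097 in DKS-5 hypoxia and 132 and 127 in DKS-5 normoxia, against 2006 and 1932 in DKO-3 hypoxia and 413 and 342 in DKO-3 normoxia. The lines overlapped in hypoxia, and in normoxia both DKS-5 arrays lay below both DKO-3 arrays. On the log2 scale NDRG1 rose by 3.82 ± 0.20 (SE) in DKS-5 and by 2.34 ± 0.20 in DKO-3, with an interaction of 1.48 (95% interval 0.87 to 2.10, limma adjusted p = 0.738). The DKS-5 level was lower than the DKO-3 level in normoxia by a log2 difference of -1.43 (limma adjusted p = 0.000892), and the difference in hypoxia was 0.05 (adjusted p = 0.923). On the linear scale NDRG1 gained 1916.5 signal units in DKS-5 and 1592 in DKO-3, and the lower start enters that difference too.

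ENO2, the neuronal form of the glycolytic enzyme enolase, also started lower in DKS-5. It measured 450 and 630 in DKS-5 hypoxia and 82.9 and 91.0 in DKS-5 normoxia, against 775 and 609 in DKO-3 hypoxia and 338 and 250 in DKO-3 normoxia. The rise of 2.41 ± 0.25 passed the threshold in DKS-5 (limma adjusted p = 0.000128), and the difference of 1.20 ± 0.25 in DKO-3 did not (adjusted p = 0.0701). The line difference was -1.58 in normoxia (limma adjusted p = 0.00233) and -0.36 in hypoxia (adjusted p = 0.496), where the arrays of the lines overlapped. The gain in signal was 453 units in DKS-5, against 398 in DKO-3. For NDRG1 and ENO2 the lower normoxia level in DKS-5 passed the threshold under each of the 19 other settings run, leave-one-out fits included.

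NPR1, a natriuretic peptide receptor, was dim and lay at the start as well. Its signal was 23.9 and 20.6 in DKS-5 hypoxia and 4.90 and 1.82 in DKS-5 normoxia, against 13.7 and 11.6 in DKO-3 hypoxia and 20.2 and 28.8 in DKO-3 normoxia. The normoxia difference of -1.06 passed (limma adjusted p = 0.0267), and the hypoxia difference of 0.42 did not (adjusted p = 0.383). A second, dimmer probe set of NPR1 gave an interaction of -0.06, and leaving out any of the 4 normoxia arrays ended the call on the start.

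DDIT4, whose product restrains the growth kinase mTOR, differed on both sides, starting lower and ending higher in DKS-5. It measured 5297 and 5225 in DKS-5 hypoxia and 867 and 953 in DKS-5 normoxia, against 3781 and 3355 in DKO-3 hypoxia and 1508 and 1361 in DKO-3 normoxia. The lines did not overlap in either state. DDIT4 rose in both, by 2.51 ± 0.16 in DKS-5 and by 1.30 ± 0.16 in DKO-3, with the smallest interaction p of all genes (interaction 1.21, 95% interval 0.72 to 1.70, limma adjusted p = 0.738). The line difference was -0.65 in normoxia (limma adjusted p = 0.0481) and 0.56 in hypoxia (adjusted p = 0.0667), and the first of these was lost under 12 of 19 other settings. In signal units the gain was 4351 in DKS-5, against 2134 in DKO-3. Without array scaling the difference fell to the start, with a share of 0.139.

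PFKFB3, an enzyme that makes the main activator of phosphofructokinase and so speeds glycolysis, showed the same crossing. Its signal was 3530 and 4057 in DKS-5 hypoxia and 1031 and 1153 in DKS-5 normoxia, against 2560 and 2627 in DKO-3 hypoxia and 1487 and 1465 in DKO-3 normoxia. PFKFB3 rose by 1.78 ± 0.17 in DKS-5 (limma adjusted p = 4.35e-05), and its difference of 0.81 ± 0.17 in DKO-3 did not pass (adjusted p = 0.0579). The line difference was -0.43 in normoxia and 0.54 in hypoxia, neither past the threshold, and without array scaling PFKFB3 too fell to the start, with a share of 0.167. ARLN, which encodes a micropeptide of the endoplasmic reticulum, rose by 1.38 in DKS-5 and differed by 0.32 in DKO-3, but its 3 probe sets gave interactions of 1.06, 0.57 and 0.08. THAP11, a zinc-finger transcription factor gene, had an interaction of 1.23, STARD7, a lipid transfer protein gene, one of 0.72, and RBBP8NL, at signals of 35.1 and below, one of 1.25. None of these 3 passed the threshold for hypoxia in DKS-5 or DKO-3.

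VEGFA, the main growth factor of blood vessels, differed at the hypoxia level. On its brightest probe set it measured 1200 and 865 in DKS-5 hypoxia and 231 and 214 in DKS-5 normoxia, against 296 and 275 in DKO-3 hypoxia and 198 and 173 in DKO-3 normoxia. The normoxia values were close, and in hypoxia both DKS-5 arrays lay far above both DKO-3 arrays. VEGFA rose by 2.12 ± 0.24 in DKS-5, and its difference of 0.58 ± 0.24 in DKO-3 did not pass (limma adjusted p = 0.415). The line difference was 1.78 in hypoxia (limma adjusted p = 0.000401, lost with the mean of all probe sets and with the ACTB ratio as a covariate) and 0.24 in normoxia (adjusted p = 0.839), and the interaction was 1.54 (95% interval 0.82 to 2.25). The other 3 probe sets of VEGFA gave interactions of -0.04, 0.09 and 0.37, with DKS-5 responses of 1.04 to 1.24 and DKO-3 responses of 0.87 to 1.09. The larger response in DKS-5 thus rests on 1 of 4 probe sets, and with the mean of all probe sets the interaction was 0.49.

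KISS1R, the receptor of the peptide kisspeptin, differed at the hypoxia level. It measured 99.4 and 110 in DKS-5 hypoxia and 29.3 and 24.3 in DKS-5 normoxia, against 35.5 and 34.5 in DKO-3 hypoxia and 42.5 and 31.0 in DKO-3 normoxia. KISS1R rose by 1.50 ± 0.24 in DKS-5 (limma adjusted p = 0.00603), while in DKO-3 the difference was -0.04 ± 0.24. The line difference in hypoxia was 1.24 (limma adjusted p = 0.00843), and in normoxia it was -0.29 (adjusted p = 0.781). The hypoxia difference no longer passed with the ACTB ratio as a covariate or without either DKO-3 hypoxia array. The rise in DKS-5 did not pass without DKS-5 hypoxia replicate 2, without either DKS-5 normoxia array or without array scaling.

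NPAS3, a transcription factor of the same structural family as the HIF subunits, started close and diverged, as VEGFA did. Its signal was 56.9 and 56.2 in DKS-5 hypoxia, against 7.60 and 7.59 in DKS-5 normoxia, and 8.30 and 10.9 in DKO-3 hypoxia, against 3.96 and 2.69 in DKO-3 normoxia. NPAS3 rose by 1.62 in DKS-5 (limma adjusted p = 0.00189), and the line difference of 1.51 in hypoxia passed (adjusted p = 0.0013). That difference passed under 14 of the 15 other settings that tested NPAS3, failing with the ACTB ratio as a covariate. The mean signal of NPAS3 was 56.5 in DKS-5 hypoxia, 7.60 in DKS-5 normoxia, 9.59 in DKO-3 hypoxia and 3.32 in DKO-3 normoxia. The other groups lay below the filter signal of 13.8, so NPAS3 was tested because of DKS-5 hypoxia, where it was high. Only 1 of its 9 probe sets was bright enough to be tested, and the others gave interactions between -0.44 and 0.53.

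**Figure D2:**
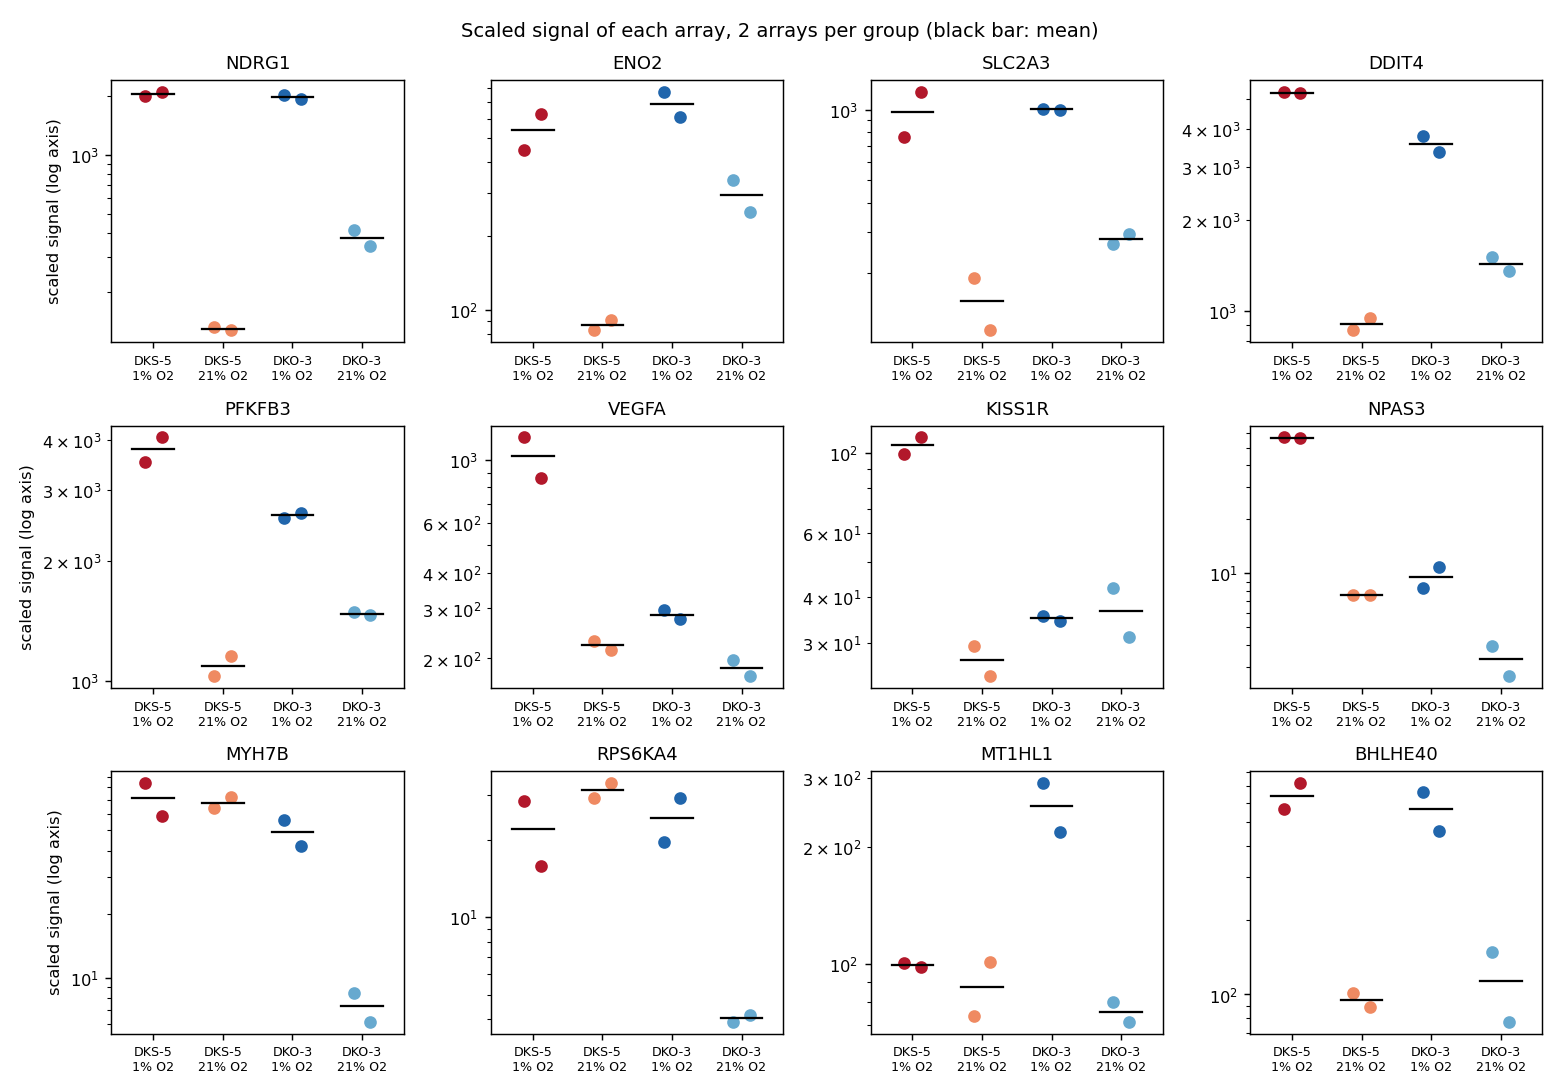
Scaled signal of each of the 8 arrays for 12 genes, on log axes that differ between panels. Columns run from DKS-5 hypoxia to DKO-3 normoxia, points are arrays and black bars are group means. NDRG1 and ENO2 differ most between the lines at 21% O2, VEGFA, KISS1R and NPAS3 at 1% O2, DDIT4 and PFKFB3 at both, and BHLHE40 overlaps between the lines in both states.

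The promoters of DDIT4 and ENO2 are printed here because they bear the response element core in 2 genes with the larger rise in DKS-5, the first crossing and the second converging between the lines. The windows run from 250 bases before to 50 bases after the start of the gene, 5' to 3' on the gene's strand, from RefSeq on GRCh38.p14. Capitals mark ACGTG or GCGTG on either strand, so that the reverse complements CACGT and CACGC count as well. DDIT4 (chr10:72273674-72273973, plus strand) holds 4 matches and ENO2 (chr12:6914330-6914629, plus strand) holds 1.
DDIT4: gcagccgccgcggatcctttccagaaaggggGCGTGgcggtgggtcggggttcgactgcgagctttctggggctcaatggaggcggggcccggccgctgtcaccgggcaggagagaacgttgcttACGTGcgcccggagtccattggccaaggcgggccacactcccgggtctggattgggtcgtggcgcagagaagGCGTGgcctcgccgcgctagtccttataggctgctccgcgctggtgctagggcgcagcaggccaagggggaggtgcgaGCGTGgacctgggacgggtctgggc
ENO2: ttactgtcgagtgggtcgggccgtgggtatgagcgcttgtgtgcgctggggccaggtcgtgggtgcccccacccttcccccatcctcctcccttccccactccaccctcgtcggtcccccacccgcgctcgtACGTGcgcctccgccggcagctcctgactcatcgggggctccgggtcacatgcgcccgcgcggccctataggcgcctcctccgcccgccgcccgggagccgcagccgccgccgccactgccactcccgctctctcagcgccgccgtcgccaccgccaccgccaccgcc

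Among the 35116 RefSeq promoters, 48.4% held at least 1 match to either core, and 21.4% held ACGTG. Of 9 promoters of 8 of the 12 genes with the larger response in DKS-5, 7 held a match, and of 7 promoters of 6 of the 12 genes with the larger response in DKO-3, 2 did. Among the 145 genes raised by hypoxia, 120 had an entry, and 125 of their 195 promoters (64.1%) held a match. Within that set the share was 64.2% of 106 promoters where the estimate was larger in DKS-5 and 64% of 89 where it was larger in DKO-3. A match says only that these letters stand in the window.

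The 12 genes with the smallest p and the larger response in DKO-3 were ETAA1, BCL2L10, FAM86B3P, MYH7B, IL19, FHIP1B, TTLL1, MT1HL1, ALDH16A1, SMIM29, SPATC1L and RPS6KA4, with a median interaction of -1.44. Their median signal was 32.2, against 781 for the 12 genes with the larger response in DKS-5 and 185 over all genes tested. Only MT1HL1 belonged to the 145 genes raised by hypoxia on average, and in 9 of the 12 the estimates had opposite signs in DKS-5 and DKO-3. In some the estimated fall in DKS-5 exceeded the rise in DKO-3, as in BCL2L10 (-1.21 against 0.40). In others the rise in DKO-3 was the larger, as in FHIP1B (-0.41 against 0.90). No fall in DKS-5 passed the threshold. All 12 showed DKS-5 differences below all DKO-3 differences between arrays, a pattern found in 7.17% of all genes and here fixed by the choice of the genes.

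In this direction 3 genes fell to the normoxia start, 1 converged, 5 fell to both and 3 fell to the hypoxia level. MYH7B, a myosin heavy chain gene, had 83.6 and 58.4 in DKS-5 hypoxia and 63.8 and 71.7 in DKS-5 normoxia, against 56.1 and 42.2 in DKO-3 hypoxia and 8.48 and 6.16 in DKO-3 normoxia. Only the DKO-3 normoxia arrays were low. The line difference was 1.84 in normoxia (limma adjusted p = 0.000625) and 0.41 in hypoxia (adjusted p = 0.424), and MYH7B rose by 1.48 in DKO-3 (adjusted p = 0.0141), against a difference of 0.04 in DKS-5. The normoxia difference of MYH7B passed under each of the 18 other settings that could be run, and its rise in DKO-3 was lost without any 1 of the 4 DKO-3 arrays.

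RPS6KA4, a mitogen- and stress-activated kinase gene, and SMIM29 followed the same pattern at the start. RPS6KA4 had 28.4 and 15.9 in DKS-5 hypoxia and 29.2 and 33.2 in DKS-5 normoxia, against 19.7 and 29.0 in DKO-3 hypoxia and 3.92 and 4.16 in DKO-3 normoxia. Its normoxia difference of 1.23 passed (limma adjusted p = 0.0142), but not without any 1 of the 4 normoxia arrays, and its second, dimmer probe set gave an interaction of 0.24. SMIM29 had 44.6 and 51.7 in DKS-5 hypoxia and 51.0 and 55.4 in DKS-5 normoxia, against 56.5 and 57.6 in DKO-3 hypoxia and 21.5 and 5.51 in DKO-3 normoxia. Its normoxia difference was 1.28 (limma adjusted p = 0.0191), and it was lost without either DKS-5 normoxia array, without DKO-3 normoxia replicate 2 and with the ACTB covariate.

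MT1HL1, a member of the metallothionein family, differed at the hypoxia level. It had 101 and 98.3 in DKS-5 hypoxia and 73.6 and 101 in DKS-5 normoxia, against 291 and 218 in DKO-3 hypoxia and 79.9 and 71.3 in DKO-3 normoxia. MT1HL1 rose by 1.55 in DKO-3 (limma adjusted p = 0.0102), and the line difference in hypoxia was -1.21 (adjusted p = 0.0130). Metallothionein genes are near-identical, as are FAM86B3P and its relatives, and probe sets may read several of them, so these assignments are uncertain. Both calls of MT1HL1 were lost without DKO-3 hypoxia replicate 1 and with the ACTB ratio as a covariate, and the rise also without either DKO-3 normoxia array. TTLL1, a gene for a tubulin-modifying enzyme, also lay lower in DKS-5 hypoxia (-1.10, limma adjusted p = 0.0201), at signals of 6.82 and 2.67 against 31.9 and 24.8 in DKO-3 hypoxia. That call was lost without DKS-5 hypoxia replicate 2, without either DKO-3 hypoxia array and with the ACTB covariate.

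ALDH16A1, of the aldehyde dehydrogenase family, had the largest estimate in either direction, -1.89 (95% interval -2.94 to -0.83), and rests on a split pair. Its signal was 2.83 and 3.61 in DKS-5 hypoxia and 27.9 and 23.0 in DKS-5 normoxia, against 35.4 and 32.6 in DKO-3 hypoxia and 1.62 and 32.2 in DKO-3 normoxia. The DKO-3 normoxia arrays of this gene lay at opposite ends, 1 near the DKS-5 hypoxia values and 1 near those of DKO-3 hypoxia. Without the first of them the interaction was -1.16, and without the second it was -2.61 (limma adjusted p = 0.107). ETAA1, which activates the DNA damage kinase ATR, was the brightest of the 12 at 125 and 200 in DKS-5 hypoxia and 310 and 286 in DKS-5 normoxia, against 281 and 293 in DKO-3 hypoxia and 196 and 139 in DKO-3 normoxia. Its line difference was -0.80 in hypoxia and 0.79 in normoxia, neither past the threshold.

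The ACTB 3' to 5' ratio was lowest in the DKO-3 hypoxia arrays, at 11.5 and 11.0, and the 12 genes with the larger response in DKO-3 were mostly dim. With the log2 of that ratio as a covariate, the interaction kept its sign in all 24 genes, with a median of 1.18 over the 12 larger in DKS-5 and -1.49 over the 12 larger in DKO-3. The slope of the covariate comes only from differences within groups, and the genes were picked by their interaction p. That fit therefore cannot separate RNA quality from the groups. Without the second DKS-5 hypoxia array, which stood apart, the interaction was 0.81 to 1.77 over the 12 genes from STARD7 to VEGFA and -1.91 to -1.09 over the 12 from ALDH16A1 to RPS6KA4. As the array-wise differences of these genes do not overlap between the lines, leaving out 1 array cannot turn their signs. The contribution of RNA quality to single genes was not tested beyond this fit.

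**Figure D3:**
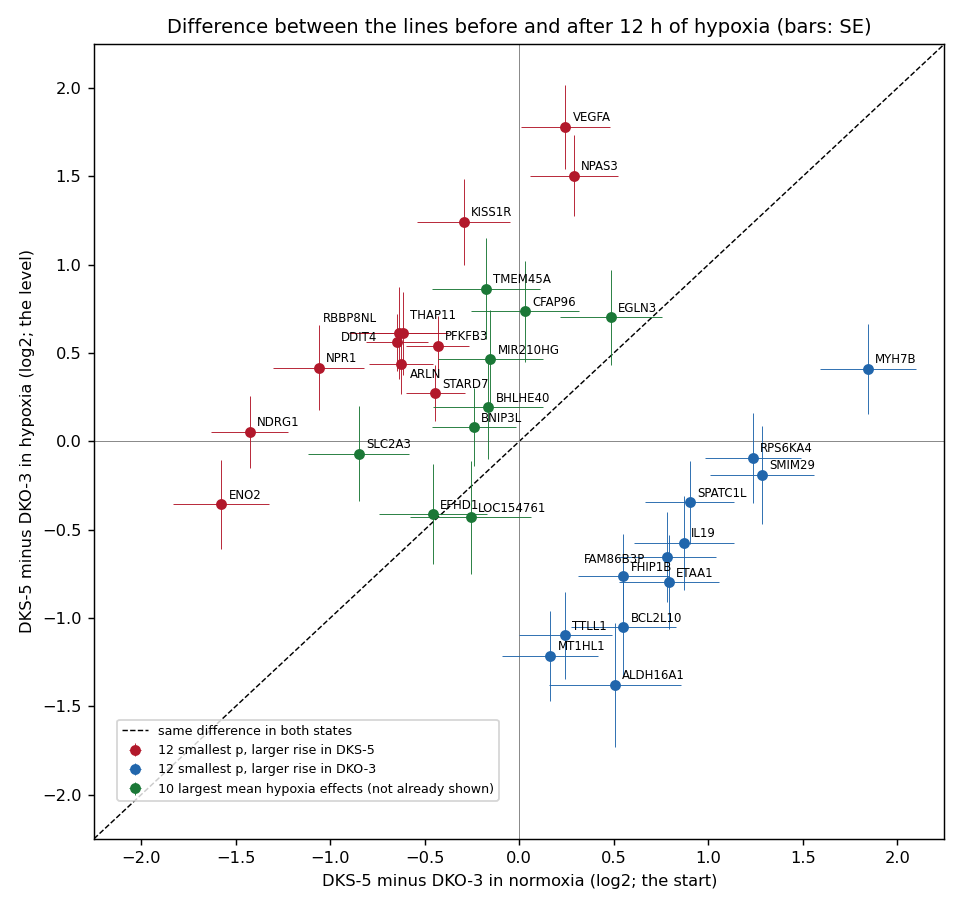
DKS-5 minus DKO-3 difference in hypoxia (vertical axis, the level) against the same difference in normoxia (horizontal axis, the start), both log2 with SE bars, for the 24 genes with the smallest interaction p and for strongly induced genes. The vertical distance from the dashed line is the interaction. NDRG1 and ENO2 lie far to the left at -1.43 and -1.58, VEGFA, NPAS3 and KISS1R lie high at 1.78, 1.51 and 1.24, and MYH7B lies far to the right at 1.84.

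The wider sets at an unadjusted p under 0.05 gave the same contrast in brightness. The 139 genes with the larger response in DKS-5 had a median signal of 571, and the 194 with the larger response in DKO-3 had one of 43.1. Of the 139, 24 fell to the start, 10 converged, 40 fell to both, 34 fell to the level and 31 diverged. Of the 194, 23 fell to the start, 10 converged, 61 fell to both, 65 fell to the level and 35 diverged. The estimates of DKS-5 and DKO-3 had opposite signs in 112 of the 139 (80.6%) and 165 of the 194 (85.1%), against 36.1% of all genes, an excess that choosing genes by the difference of the responses builds in. Genes raised by hypoxia on average made up 17 of the 139 and 5 of the 194.

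Several of the most strongly induced genes had interactions whose intervals held 0. BHLHE40, a transcriptional repressor of the clock and hypoxia responses, measured 563 and 719 in DKS-5 hypoxia and 101 and 88.7 in DKS-5 normoxia, against 665 and 462 in DKO-3 hypoxia and 149 and 77.5 in DKO-3 normoxia. The lines overlapped in both states. BHLHE40 rose by 2.56 in DKS-5 and by 2.20 in DKO-3, and the interaction of 0.36 had an interval of -0.52 to 1.23. Its promoter (chr3:4979187-4979486, plus strand, same window and build) is shown as that of a gene raised in both lines, and it holds 4 matches, of which 2 overlap in the palindrome CACGTG.
BHLHE40: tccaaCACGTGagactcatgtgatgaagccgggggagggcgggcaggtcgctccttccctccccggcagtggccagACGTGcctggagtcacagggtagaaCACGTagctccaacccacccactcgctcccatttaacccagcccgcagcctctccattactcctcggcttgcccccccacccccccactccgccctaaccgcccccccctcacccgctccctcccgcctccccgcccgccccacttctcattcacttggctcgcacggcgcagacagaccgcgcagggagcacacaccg

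EGLN3, a HIF prolyl hydroxylase and itself a HIF target, rose by 2.35 in DKS-5 and by 2.13 in DKO-3 (interaction 0.22, 95% interval -0.59 to 1.02). MIR210HG, the host transcript of the microRNA miR-210, rose by 3.03 in DKS-5 and by 2.41 in DKO-3 (interaction 0.62, interval -0.22 to 1.45). EFHD1, a calcium-binding protein gene of mitochondria, had an interaction of 0.04 (interval -0.81 to 0.90). BNIP3L, a mitophagy receptor gene, had an interaction of 0.32 (interval -0.35 to 0.98), the noncoding LOC154761 one of -0.17 (interval -1.14 to 0.79) and CFAP96 one of 0.70 (interval -0.16 to 1.57). The intervals hold 0 and also differences of more than 1.5-fold in each of these genes, so they do not show equal responses. The rises in DKO-3 of BHLHE40, EGLN3, MIR210HG, EFHD1, BNIP3L, LOC154761 and CFAP96, and those of DDIT4, AK4, SLC2A3 and TMEM45A, were lost without DKO-3 hypoxia replicate 1.

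SLC2A3, a high-affinity glucose transporter gene, and TMEM45A, a membrane protein gene, leaned towards DKS-5. SLC2A3 measured 763 and 1194 in DKS-5 hypoxia and 192 and 114 in DKS-5 normoxia, against 1010 and 996 in DKO-3 hypoxia and 268 and 294 in DKO-3 normoxia. As in NDRG1, the lines overlapped in hypoxia and DKS-5 started lower, though here the normoxia difference of -0.85 did not pass (limma adjusted p = 0.143). Its interaction was 0.78 (95% interval -0.03 to 1.59), 0.50 to 1.18 over its 3 probe sets. TMEM45A measured 491 and 570 in DKS-5 hypoxia and 80.9 and 58.5 in DKS-5 normoxia. In DKO-3 it measured 275 and 293 in hypoxia and 113 and 55.8 in normoxia. The interaction of 1.04 fell to the hypoxia level, where the line difference of 0.86 did not pass (limma adjusted p = 0.11). The HIF subunit genes themselves gave -0.06 for HIF1A (interval -0.71 to 0.59) and -0.16 for EPAS1 (interval -0.98 to 0.66), and neither passed the threshold for hypoxia in DKS-5 or DKO-3.

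To see the hypoxia programme as a whole, genes were chosen by their hypoxia effect averaged over the lines, a contrast that in this balanced design does not use the difference between them. Hypoxia raised 145 genes (1.14%) and lowered 7 (0.055%) by that measure, 152 in all, against 760, 66, 58 and 95 without the first array of DKS-5 hypoxia, DKS-5 normoxia, DKO-3 hypoxia and DKO-3 normoxia in turn. Of the 145, 85 had the larger estimate in DKS-5, 58.6% against 48% of all genes tested, with a median interaction of 0.14 against -0.02 over all genes. Over the 145 genes the median response was 1.04 for DKS-5, against 1.07 for DKO-3. The responses did not overlap, with DKS-5 above, in 32 of the 145, against 765 of 12735 genes (6.01%). With DKO-3 above they did not overlap in 12 of the 145, against 913 of 12735 (7.17%), a share close to that of all genes. With the same 145 genes, the median was 0.04 to 0.28 with any 1 array left out. With the raised genes chosen anew in each such fit, which is no longer balanced, the share was 42.6% and the median -0.20 without DKO-3 normoxia replicate 2, and over the other 7 arrays left out in turn the share ran up to 79.3% and the median to 0.38. Without array scaling, which moved the median interaction of all genes to -0.41, the median was -0.31 over the same genes and -0.28 over those chosen anew. Relative to the median of all genes, that of the raised genes was 0.15 in the reported fit. For genes chosen anew it was 0.12 without array scaling and 0.07 with quantile normalization. The line differences of the set had medians of 0.07 in hypoxia and -0.04 in normoxia.

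By line, 64 genes (0.503%) rose in DKS-5 and 44 (0.346%) in DKO-3 with limma at an adjusted p under 0.05. Of the 145 genes, 63 rose in DKS-5 and 41 in DKO-3, 31 of them in both. These counts were not stable. In DKS-5, 294 genes passed without the first DKS-5 hypoxia array, 40 without the second, 29 without the first DKS-5 normoxia array and 37 without the second. In DKO-3, 1 gene, NDRG1, was left without DKO-3 hypoxia replicate 1, 22 without the second array of that group, 24 without the first DKO-3 normoxia array, and 69 without the second DKS-5 hypoxia array. A gene called in DKS-5 and missed in DKO-3 is therefore not shown to respond differently.

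Among the 145 raised genes, 22 had an interaction p under 0.05 before adjustment, 17 with the larger rise in DKS-5 and 5 with the larger rise in DKO-3, against 2.61%, 1.09% and 1.52% of all genes tested. The 17 held 3 secreted factors besides VEGFA, of which STC1 and ANGPTL4, like AK4 and SMIM3 below, fall outside the rule for named genes and were chosen after their values were seen. STC1, a glycoprotein hormone, had 51.0 and 103 in DKS-5 hypoxia and 8.51 and 14.6 in DKS-5 normoxia. It had 20.4 and 13.0 in DKO-3 hypoxia and 5.68 and 3.59 in DKO-3 normoxia. Its mean signal was 77.1 in DKS-5 hypoxia and at most 16.7 in the other groups, so passing the filter at 13.8 leaned on DKS-5 hypoxia. Its interaction of 1.05 lay at the hypoxia level, where the line difference was 1.46 (limma adjusted p = 0.00917), a call lost without DKS-5 hypoxia replicate 2, without either DKO-3 hypoxia array, with the ACTB covariate and with no filter on dim probe sets. ANGPTL4, an inhibitor of lipoprotein lipase, had 81.6 and 101 in DKS-5 hypoxia and 2.65 and 8.36 in DKS-5 normoxia, against 40.7 and 33.6 in DKO-3 hypoxia and 1.52 and 2.28 in DKO-3 normoxia. ADM, a vessel-dilating peptide, had 1287 and 1314 in DKS-5 hypoxia and 309 and 366 in DKS-5 normoxia, against 918 and 644 in DKO-3 hypoxia and 348 and 376 in DKO-3 normoxia. In STC1, ANGPTL4 and ADM the line differences in normoxia were 0.41, 0.25 and -0.10, none past the threshold, and both DKS-5 hypoxia arrays lay above both DKO-3 hypoxia arrays. The interactions were 0.76 for ANGPTL4 and 0.84 for ADM, with shares of 1.33 and 0.883 at the hypoxia level. The line difference of ANGPTL4 in hypoxia was 1.01 (limma adjusted p = 0.0322), a call kept under 9 of 18 other settings. That of ADM, 0.75, did not pass (limma adjusted p = 0.0794). The rise of ANGPTL4 in DKS-5 was lost with the mean of all probe sets.

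Others of the 17 were intracellular. AK4, a mitochondrial adenylate kinase, rose by 2.16 in DKS-5 and by 1.47 in DKO-3, with 2512 and 3075 in DKS-5 hypoxia and 633 and 586 in DKS-5 normoxia, against 1923 and 2138 in DKO-3 hypoxia and 800 and 649 in DKO-3 normoxia. CDKN1A, the cell cycle inhibitor p21, rose by 1.15 in DKS-5 and differed by 0.47 in DKO-3, and it converged, with 738 and 968 in DKS-5 hypoxia and 368 and 379 in DKS-5 normoxia, against 846 and 946 in DKO-3 hypoxia and 696 and 595 in DKO-3 normoxia. SMIM3 diverged, with a line difference of 1.67 in hypoxia (limma adjusted p = 0.000344) and 0.84 in normoxia (adjusted p = 0.0501). For PGK1, a glycolytic kinase gene, the interaction of 0.41 belonged to the brightest of 6 probe sets, which ran from -0.28 to 0.41, and it was -0.04 without array scaling. EGLN1, the main HIF prolyl hydroxylase gene, rose by 1.17 in DKS-5 and differed by 0.57 in DKO-3, but its 3 probe sets above the filter gave interactions of 0.60, 0.52 and 0.05. The rises of CDKN1A and EGLN1 in DKS-5 were lost without DKS-5 hypoxia replicate 2, without either DKS-5 normoxia array and without array scaling.

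The 5 raised genes that leaned towards DKO-3 were PPFIA4, MT1HL1, MOV10, SLC67A1 and GPR146. Apart from MT1HL1 they fall outside the rule for named genes and were chosen after their values were seen. PPFIA4, a synaptic scaffold gene of the liprin family, had 35.4 and 19.3 in DKS-5 hypoxia and 12.2 and 14.1 in DKS-5 normoxia, against 233 and 152 in DKO-3 hypoxia and 48.8 and 32.0 in DKO-3 normoxia. All DKS-5 arrays lay below the DKO-3 arrays of the same state, and the estimated gap was larger in hypoxia. The line difference was -2.26 in hypoxia (limma adjusted p = 0.000271), past the threshold under all 18 other settings that could be run, and -0.94 in normoxia (adjusted p = 0.117). PPFIA4 rose by 1.87 in DKO-3 (limma adjusted p = 0.00622, lost without DKO-3 hypoxia replicate 1 and without DKO-3 normoxia replicate 2), against a difference of 0.55 in DKS-5, and the interaction was -1.33 (95% interval -2.18 to -0.47). Its promoter (chr1:203026241-203026540, plus strand, same window and build) is shown beside those of the genes with the larger rise in DKS-5, since it too carries the core, with 3 matches of which 2 overlap in CACGTG.
PPFIA4: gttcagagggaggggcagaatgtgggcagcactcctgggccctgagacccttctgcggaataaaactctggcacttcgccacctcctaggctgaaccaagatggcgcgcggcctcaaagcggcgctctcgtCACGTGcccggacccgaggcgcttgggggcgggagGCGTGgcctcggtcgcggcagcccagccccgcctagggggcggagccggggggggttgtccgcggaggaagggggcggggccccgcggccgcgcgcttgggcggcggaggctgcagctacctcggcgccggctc

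MOV10, an RNA helicase gene, had 70.6 and 60.9 in DKS-5 hypoxia and 46.7 and 54.5 in DKS-5 normoxia, against 220 and 153 in DKO-3 hypoxia and 48.9 and 74.0 in DKO-3 normoxia. Its difference also lay at the hypoxia level (-1.29, limma adjusted p = 0.0120). That call was lost without DKO-3 hypoxia replicate 1 and with the ACTB covariate. The rise of 1.39 in DKO-3 was lost without any 1 of the DKO-3 arrays or of the DKS-5 normoxia arrays. The interactions of SLC67A1 and GPR146 were -0.97 and -0.84, and both genes were split between the start and the level. The 7 lowered genes had a median interaction of 0.04.

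Grouped by role, the genes that carry sugar into cells and set glycolytic flux had 7 of 10 tested members larger in DKS-5 and a median interaction of 0.37, the highest of the 20 lists here but not without array scaling or with quantile normalization. Relative to the median of all genes the list lay at 0.39, and at 0.33 without array scaling and 0.19 with quantile normalization. Of its members not yet described, which apart from SLC2A8 were chosen after their values were seen, SLC2A1, the ubiquitous glucose transporter gene, gave 0.38 and PFKFB4 gave 0.49, while the transporter gene SLC2A8 (-0.86) and the hexokinase gene HK1 (-0.61) lay on the DKO-3 side. In this list 5 members rose in DKS-5 (0.503% of all genes did) and 2 in DKO-3 (0.346%), counts that, as above, show no difference between the lines. The glycolytic enzymes themselves were split, with 11 of 19 larger in DKS-5 and a median of 0.20. LDHA, the lactate dehydrogenase gene, gave 0.33 (95% interval -0.04 to 0.70) and rose in DKS-5 by 0.63 (limma adjusted p = 0.024, a call kept under 9 of 19 other settings and lost without any 1 of the normoxia arrays), against a difference of 0.31 in DKO-3. Chosen after their values were seen, the glycogen synthase gene GYS1 (-0.64) and the aldolase gene ALDOA (-0.51) lay on the DKO-3 side. Of these enzymes 8 rose in DKS-5 and 4 in DKO-3, against the same 0.503% and 0.346% of all genes, and again the counts show no difference between the lines.

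Of the 11 angiogenic and vasoactive factors tested, 5 rose in DKS-5 (VEGFA, KISS1R, STC1, ADM and ANGPTL4), against 0.503% of all genes, and 1 in DKO-3, against 0.346%. These 5 were larger in DKS-5 with an unadjusted limma p under 0.05 (1.09% of all genes were), VEGFA on its brightest probe set only. Genes picked by a rise in DKS-5 lean that way by the choice, so this is a description. The 6 others lay between -0.36 and 0.17. The list median was 0.17, with a median line difference of 0.75 in hypoxia and -0.01 in normoxia. The mitophagy, pH and other adaptation genes had 21 of 29 members larger in DKS-5 and a median of 0.14, with PPFIA4 as the exception at the other end. Estimates near 0, also chosen after their values were seen, were those of the histone demethylase gene KDM3A (-0.07), ANKRD37 (0.06) and the lipid droplet gene HILPDA (0.04). HIF subunits, oxygen sensing and feedback had 7 of 11 members larger in DKS-5 and a median of 0.15, from -0.45 for BHLHE41 to 0.60 for EGLN1. Collagen hydroxylation genes were split, with 5 of 9 members larger in DKS-5: the prolyl hydroxylase subunit P4HA1 rose by 1.41 in DKS-5 and by 1.04 in DKO-3, with both calls lost under the mean of all probe sets and the second also without any 1 of the DKO-3 arrays, P4HA2 gave an interaction of 0.55 and P4HB one of -0.68.

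The genes that report ERK signalling had 16 of 23 members larger in DKS-5 and a median interaction of 0.16. They hardly responded to hypoxia, with a median response of 0.00 in DKS-5, against -0.13 in DKO-3. Their line difference had a median of 0.22 in hypoxia and -0.07 in normoxia. SPRY1, a feedback inhibitor of receptor signalling, was the only one of them that rose in DKS-5, with 586 and 759 in DKS-5 hypoxia and 207 and 188 in DKS-5 normoxia, against 428 and 398 in DKO-3 hypoxia and 271 and 243 in DKO-3 normoxia. Its interaction was 1.03, while its second, dimmer probe set gave -0.20, and with the mean of both the rise did not pass. IER3, an early response gene, was higher in DKS-5 hypoxia by 0.93 (limma adjusted p = 0.00299, lost without array scaling and with the ACTB covariate), with an interaction of 0.47. The ephrin receptor gene EPHA4 had a line difference of -1.60 in hypoxia (limma adjusted p = 0.00265) and -0.81 in normoxia (adjusted p = 0.167), with an interaction of -0.79. Its hypoxia call was lost without DKO-3 hypoxia replicate 1, with the mean of all probe sets and with the ACTB covariate. Over the 4 probe sets of EPHA4 above the filter, the interaction ran from -0.79 to 0.42. Their line differences ran from -1.01 to -0.59 in normoxia and from -1.60 to -0.59 in hypoxia. The estimates of EPHA4 were thus lower in DKS-5 in both states, though the normoxia difference did not pass and these probe sets share the arrays. The sign of its interaction varied between probe sets. ERRFI1, a feedback inhibitor of the EGF receptor, gave 0.61 (95% interval 0.18 to 1.03). It belonged to another list, that of EGF receptors and their ligands, and was the highest there. In that list 3 of 8 tested members were larger in DKS-5, with a median interaction of -0.08.

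Cholesterol synthesis had 9 of 12 members larger in DKS-5 and a median of 0.27. MSMO1, a sterol oxidase gene that itself needs oxygen, had 4834 and 5358 in DKS-5 hypoxia and 2632 and 3415 in DKS-5 normoxia, against 2672 and 2886 in DKO-3 hypoxia and 2650 and 2228 in DKO-3 normoxia. Its line difference in hypoxia was 0.87 (limma adjusted p = 0.00773), lost without DKO-3 hypoxia replicate 1, without array scaling and with the ACTB covariate, and its interaction was 0.57. Oxidative phosphorylation lay the other way, with 5 of 20 members larger in DKS-5 and a median of -0.15, as did NF-kappaB genes and chemokines with 4 of 11 and -0.17. Proliferation genes, with 12 of 24 and a median of 0.00, and mTOR and amino acid sensing genes, with 10 of 18 and 0.00, lay near 0. Relative to all genes the median of oxidative phosphorylation was -0.14, and -0.17 without array scaling and -0.25 with quantile normalization. The remaining lists had medians between -0.38, for 3 non-epithelial markers, and 0.17, for 7 genes of colon epithelial identity. In no list did a member pass the adjusted threshold for the interaction, and over all genes tested 6119 of 12735 (48%) had the larger estimate in DKS-5.

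**Figure D4:**
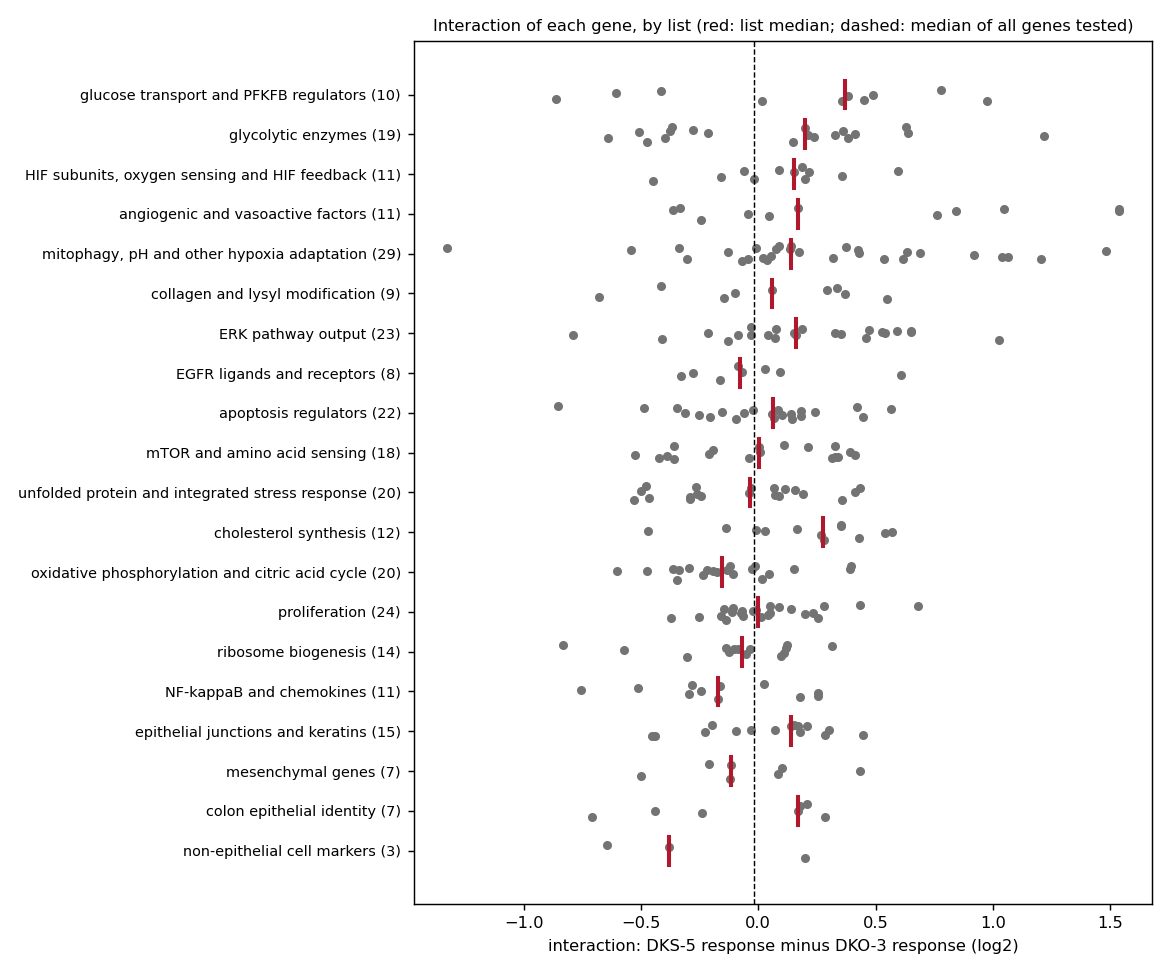
Interaction (DKS-5 response minus DKO-3 response, log2) of each tested member of 20 gene lists, with the number of tested members in brackets. Points are genes, red bars list medians, and the dashed line the median of all genes tested at -0.02. The sugar uptake and PFKFB list has its median at 0.37 and the oxidative phosphorylation list at -0.15.

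**Figure D5:**
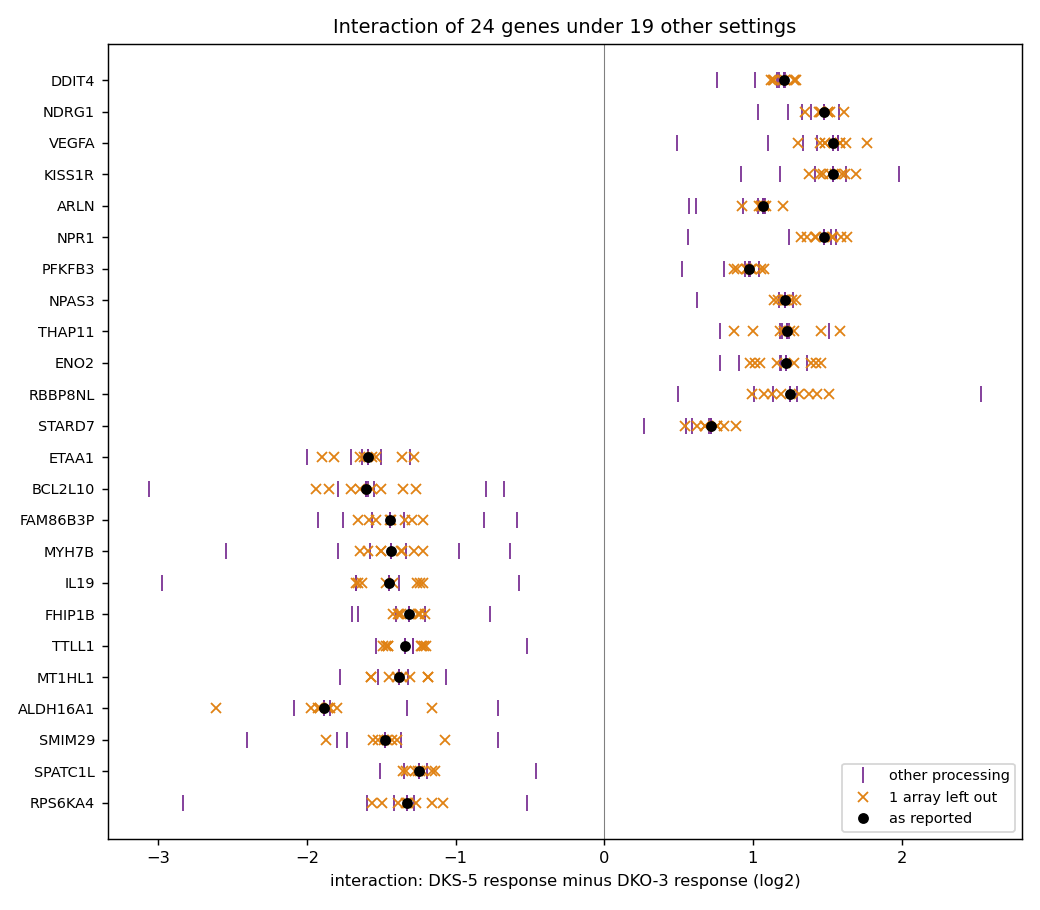
Interaction of the 24 genes with the smallest p under up to 19 other settings. Black points are the reported values, purple ticks other processing and orange crosses fits with 1 array left out. No gene crosses 0, as the choice of genes fixes for fits without 1 array, other single probe sets not being drawn, and the values spread most for dim genes such as RPS6KA4, IL19 and BCL2L10 when the pseudocount changed.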

How the data were processed

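The authors deposited linear intensities per probe set, computed with MAS5 per the submitters' processing notes. Its version and scaling target are not given in the sources used here. RNA had been amplified to cDNA before labelling, per the labels' protocols. Each array was scaled to the median 2% trimmed mean (172.1) and transformed to log2(signal + 16), which shrinks changes near background. Without the 62 AFFX controls, 41091 had 1 gene symbol in the platform annotation, 1801 had several and 11721 were unnamed here. Each gene took its brightest probe set, and was tested if its mean log2 exceeded the 40th percentile (a signal of 13.8).

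Contrasts were fitted by limma 3.58.1 under R 4.3.3 (1 mean per group over all 8 arrays, eBayes with a trend, two-sided, Benjamini-Hochberg adjustment over 12735 genes, threshold 0.05). Residual degrees of freedom were 4, and eBayes added 11.3. The fit was tested on simulated data. Named genes were the 12 with the smallest interaction p in each direction, the 10 with the largest hypoxia effect averaged over the lines, HIF1A, EPAS1, VEGFA and up to 3 members per list with the smallest p. The members, the rule and the 20 lists (353 genes) were chosen with earlier results of these data known. Alternatives were other pseudocounts (1 and 64), scalings, filters, probe set rules, variance and array weight settings, an ACTB ratio covariate, a replicate block and each array left out. The number of arrays limits the precision. Some list members and promoters were not analysed here.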

Additional observations from a re-analysis of the deposited data

How the results depend on the processing

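The interaction had 0 genes past the adjusted threshold under all 19 other settings, with the smallest adjusted p, 0.0847, without DKS-5 hypoxia replicate 2. The other counts moved. Without array scaling the calls were 32 for hypoxia in DKS-5 (64 in the reported fit) and 84 in DKO-3 (44). Between the lines in hypoxia they were 2383 (557). Then 29.6% of the raised genes were larger in DKS-5. Their median was -0.28 (-0.31 with the gene set kept), against -0.41 over all genes. In that fit 15 of the 23 genes still tested kept their class (start, both or level). Values of PGK1 (-0.041) and TJP1 (-0.0017), and the hypoxia line difference of NPM1 (-0.0059), then turned sign, as did the interactions of LDHA (-0.12), BNIP3L (-0.13), P4HA1 (-0.08), EGLN3 (-0.22) and BHLHE40 (-0.08), among others. EGLN3 and BHLHE40 also turned with 1 array left out. With no filter on dim probe sets the counts were 35 for DKS-5, 7 for DKO-3, 144 between the lines in normoxia (324), 217 in hypoxia and 70 for the mean of the lines (152), and the median was 0.34. Array weights gave 534 and 299 for the lines in normoxia and hypoxia. The ACTB ratio covariate gave 14 for DKO-3, 128 for the lines in hypoxia, 63 for the mean of the lines and a median of 0.32. With the filter at the 60th percentile the 12 genes still tested all kept their class. The cause of the other shifts was not tested.

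With the replicate number as a block, the calls were 92 for DKO-3 and 325 for the mean of the lines, and the share of raised genes, chosen anew, was 47.2% and their median -0.035, while the median of the same genes stayed at 0.14. Replicate deviations of the groups correlated at -0.09 to 0.33, and no label says what a number shares, so the numbers were not taken to pair the samples, and 2 arrays a group cannot settle it. With 1 array left out, the calls ran from 29 to 294 (DKS-5), 1 to 69 (DKO-3), 119 to 441 and 135 to 761 (lines in normoxia and hypoxia) and 58 to 760 (mean of the lines), the share from 42.6% to 79.3%, the median from -0.20 to 0.38 (0.04 to 0.28 with the gene set kept), and 22 to 24 genes kept their class. All 24 interactions kept their sign in every fit that tested them, which without 1 array is fixed by the choice of genes whose responses do not overlap. Other single probe sets turned the sign for BCL2L10 (0.0068), FAM86B3P (0.13), NPAS3 (-0.38, -0.10 and -0.44), NPR1 (-0.065), RPS6KA4 (0.24) and VEGFA (-0.039). Fits without an array that leave 1 array in a group assume that it varies like the others. Dim genes are limited by background: the median signal was 32.2 in the 12 genes larger in DKO-3.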
